A study of Mus musculus with 6 samples.

Results

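The genes of heat shock proteins and chaperones were compared between cell lines from mouse liver tumors by RNA-seq. They were taken by symbol, as every listed gene of the HSP70 and HSP110 (*Hspa*, *Hsph*), small heat shock protein (*Hspb*), mitochondrial chaperonin (*Hspd*, *Hspe*), HSP90, J-domain (*Dnaja*, *Dnajb*, *Dnajc*) and TRiC (*Cct*) families, which gave 82 of the 20856 genes with values. There were 3 *Myc*; sg*Trp53* lines and 3 *Myc*; sg*Kmt2c* lines. Each came from a tumor of a C57BL/6 mouse whose hepatocytes had received a *Myc* transposon together with a transient Cas9 plasmid (pX330) by hydrodynamic tail vein injection. The guide RNA of that plasmid was directed at *Trp53* in one genotype and at *Kmt2c*, which encodes the histone methyltransferase MLL3, in the other. All lines therefore carry the *Myc* transgene, by design no line has both targeted genes intact, and no line was treated. The mice were adult females by the study's methods. Removal of fibroblasts from the cultures was judged by eye, according to the methods. The study's resource table assigns the lines of a genotype to different mice, although the labels call sg*Kmt2c* replicates 2 and 3 the lines 2A and 2T1.

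Chaperones keep proteins from aggregating and help them to fold. HSP70 proteins bind short hydrophobic stretches of an unfolded chain and release them again with ATP. J-domain proteins bring the chains to HSP70 and start ATP hydrolysis, and HSP110 proteins exchange the nucleotide. HSP90 acts later, on kinases, receptors and other nearly folded clients, while the ring-shaped TRiC folds actin and tubulin in its cavity and the chaperonin of *Hspd1* and *Hspe1* does the same work in mitochondria. Small heat shock proteins hold unfolding proteins without ATP. Heat shock factor 1 raises many of these genes under stress by binding heat shock elements in their promoters, and tumor cells are known for high levels of several of them. Hepatocytes, which secrete large amounts of protein, are rich in chaperones of the endoplasmic reticulum (ER).

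Promoter windows of 300 bases, from 250 bases before a transcript's start to 50 after it, could be matched by symbol for 63 of the 82 genes (RefSeq, GRCm38.p6) and not for 19. The inverted repeat GAANNTTC, the core of a heat shock element, reads the same on both strands and was present in a window of 14 of the 63 genes (22.2%), against 2442 of all 27025 genes with a window (9.04%). The longer element, in which GAANNTTC is followed directly by NNGAA and which was searched on both strands, was present in *Dnajb6*, *Hspd1*, *Hspe1* and *Hsph1* (6.35% of the 63 genes and 0.662% of all genes). The ER stress element (CCAAT and CCACG with 9 bases of any kind between them) was matched in *Hspa5*, *Hsp90b1* and *Dnajc3*, which encode chaperones of the ER (4.76% against 0.137%). The E-box CACGTG, a sequence that MYC can bind, was present in 6 of the genes (9.52%), a share near the 8.09% of all genes. A match of letters is a description of the window and does not show that a factor binds there. The windows of *Hspb1* and *Dnajb4* are given because these genes had the smallest p-values of the family. That of *Hspe1* carries the long element in a promoter shared with *Hspd1*, and those of *Hspa1b* and *Hspa1a* show how alike the stress-inducible HSP70 genes are. Capitals mark matches to a heat shock element.
*Hspb1*, chr5:135887669-135887968, plus strand: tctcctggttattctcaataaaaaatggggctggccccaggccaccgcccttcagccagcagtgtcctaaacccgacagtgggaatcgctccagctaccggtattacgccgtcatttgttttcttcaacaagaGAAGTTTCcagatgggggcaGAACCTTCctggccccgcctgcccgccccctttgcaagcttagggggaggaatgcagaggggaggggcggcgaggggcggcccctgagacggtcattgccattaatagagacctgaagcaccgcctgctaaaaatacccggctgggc
*Dnajb4*, chr3:152210034-152210333, minus strand: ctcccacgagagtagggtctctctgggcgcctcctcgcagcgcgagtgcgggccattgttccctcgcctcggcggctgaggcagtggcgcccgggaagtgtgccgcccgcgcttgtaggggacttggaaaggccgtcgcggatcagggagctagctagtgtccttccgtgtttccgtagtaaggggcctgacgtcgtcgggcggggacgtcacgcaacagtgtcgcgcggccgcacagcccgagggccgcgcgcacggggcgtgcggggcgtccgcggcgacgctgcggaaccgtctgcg
*Hspe1*, chr1:55087898-55088197, plus strand: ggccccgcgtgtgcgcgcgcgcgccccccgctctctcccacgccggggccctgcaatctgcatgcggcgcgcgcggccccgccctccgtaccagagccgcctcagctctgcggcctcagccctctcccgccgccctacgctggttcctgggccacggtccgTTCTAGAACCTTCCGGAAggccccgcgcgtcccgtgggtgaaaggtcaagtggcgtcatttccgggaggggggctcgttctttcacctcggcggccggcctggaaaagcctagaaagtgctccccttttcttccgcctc
*Hspa1b*, chr17:34959189-34959488, minus strand: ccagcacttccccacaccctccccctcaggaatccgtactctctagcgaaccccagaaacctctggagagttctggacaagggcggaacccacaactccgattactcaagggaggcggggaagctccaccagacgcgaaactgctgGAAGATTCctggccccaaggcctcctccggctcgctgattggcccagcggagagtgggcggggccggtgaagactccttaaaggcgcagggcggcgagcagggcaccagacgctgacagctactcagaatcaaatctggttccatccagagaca
*Hspa1a*, chr17:34972107-34972406, minus strand: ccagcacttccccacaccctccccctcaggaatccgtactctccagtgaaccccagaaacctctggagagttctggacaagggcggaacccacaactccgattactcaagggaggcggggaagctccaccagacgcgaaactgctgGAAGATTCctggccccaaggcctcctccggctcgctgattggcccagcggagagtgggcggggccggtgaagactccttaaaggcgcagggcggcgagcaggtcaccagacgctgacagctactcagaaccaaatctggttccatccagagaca

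The *Hspb1* window held 2 short elements, beginning 117 and 97 bases before the start, and neither of the *Dnajb4* windows, of which the upstream one is shown, held any. In *Hspe1* 2 overlapping long elements made up the capitals. *Hspd1* is transcribed the other way from the same stretch, and one of its windows shared 285 bases with that of *Hspe1*. The windows of *Hspa1a* and *Hspa1b* had the same letter at 296 of 300 positions, with the short element 104 bases before the start in both.

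Reads on genes numbered 5312182 to 6878625 in the sg*Trp53* libraries and 3680068 to 4704539 in the sg*Kmt2c* libraries, so that each sg*Kmt2c* library was shallower, and all were run on 1 flow cell. Levels are RPKM (reads per kilobase of the transcript length listed for the gene, scaled to the reads of the library). *Trp53* transcript lay at 17.2 to 19.4 RPKM in sg*Trp53* lines and 92.2 to 124 RPKM in sg*Kmt2c* lines, whereas *Kmt2c* transcript overlapped (18.4 to 24.2 and 9.51 to 25.0 RPKM). Among the markers of cell types, *Alb* of hepatocytes lay at only 0.644 to 4.36 RPKM, *Cd3e* of T cells had no read, and the summed endothelial markers reached at most 1.27 RPKM. The keratins *Krt8* and *Krt18* were read in every line. The summed levels of 8 hepatocyte, 6 epithelial and 8 fibroblast markers differed widely among lines of the same genotype and are given beside the genes they moved with. In these bulk samples fewer cells of a type and less RNA per cell cannot be told apart.

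No chaperone gene differed between the genotypes after adjustment over all genes, and the genes with the smallest p-values, *Dnajb4* and *Hspb1* first, lay mostly lower in sg*Kmt2c* lines. A total of 64 of the 82 genes reached 1 RPKM in 3 or more of the 6 libraries and could be tested with limma on log2(RPKM + 1), with adjustment over all 11617 genes tested. None of the 64 passed an adjusted p-value under 0.05 (limma) in either direction, where 0.0516% of all genes tested passed it as higher and 0.0775% as lower (0.129% in all) in sg*Kmt2c* lines. At an unadjusted p-value under 0.05, 6 chaperone genes were lower (9.38%, against 5.34% of all genes) and 1 was higher (1.56%, against 3.25%). With limma voom on the reads recovered from the RPKM values, 5 genes had an unadjusted p-value under 0.05 (7.81%, against 8.22% of all genes under the same fit) and again 0 passed the adjustment. In 11 of the 64 genes each sg*Kmt2c* line was under every sg*Trp53* line (17.2%, where 10.4% of all genes did so), and in 1 gene every sg*Kmt2c* line lay above (1.56% against 5.72%). These 12 genes reached the smallest p-value that 3 lines against 3 allow (exact permutation test, two-sided p = 0.1). The median log2 fold change (sg*Kmt2c* minus sg*Trp53*) was -0.15 over the chaperone genes and -0.09 over all genes tested, and it was negative in 46 of 64 (71.9%) and 58.0%, respectively. For a single gene, the difference given is its log2 fold change on the same scale and the interval is its 95% confidence interval from limma. Summed over all 82 genes, the lines held 7969, 8114 and 7580 RPKM in sg*Trp53* and 6709, 7632 and 8227 RPKM in sg*Kmt2c* (replicates 1, 2 and 3, the order used throughout), and these ranges overlapped.

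**Figure D1:**
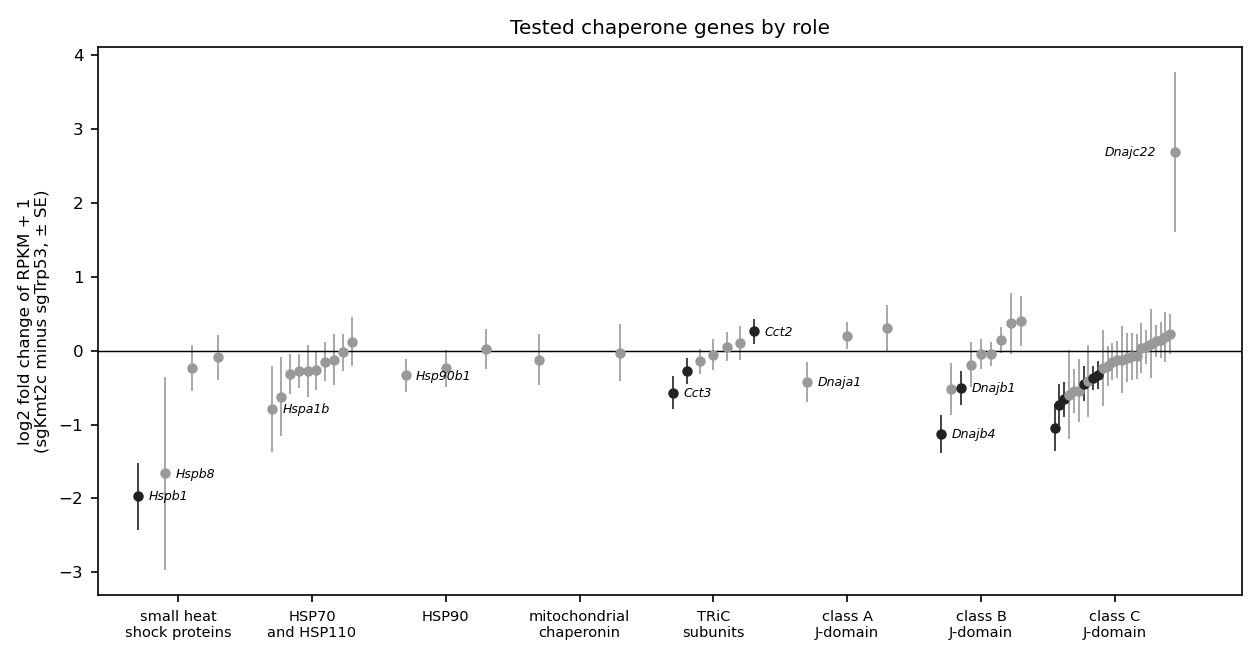
Log2 fold change of RPKM + 1 (sg*Kmt2c* minus sg*Trp53*, vertical axis, bars ± SE from limma) of the 64 tested chaperone genes, placed by role (horizontal axis), with black points for genes whose lines did not overlap between the genotypes and grey points for the others. Most genes lie between -1 and 1, *Hspb1* and *Hspb8* lie at -1.97 and -1.66, and *Dnajc22* lies at 2.69.

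The small heat shock proteins had the lowest median of the roles, -0.95 over 4 tested genes of 7. It lies midway between *Hspb8* (-1.66), which varied widely among lines, and *Hspb6* (-0.23). *Hspb1* (ENSMUSG00000004951, chromosome 5, 135887919 to 135889563) encodes HSP25, the mouse form of HSP27, which holds unfolding proteins and binds actin. It lay at 174, 155 and 197 RPKM in sg*Trp53* lines and 30.8, 28.5 and 94.0 RPKM in sg*Kmt2c* lines. All sg*Kmt2c* lines were under all sg*Trp53* lines, with replicate 3 nearest to them. The means were 175 ± 20.9 and 51.1 ± 37.2 RPKM (SD, n = 3 lines each), 3.43-fold apart. The log2 fold change was -1.97 (SE 0.455, 95% confidence interval -3.06 to -0.88), and it did not pass the adjustment (adjusted p = 0.343, limma). The summed level of 6 immune markers, 2 of them tested, also separated the genotypes, at 36.8, 20.0 and 49.8 RPKM against 5.35, 5.51 and 14.2 RPKM. This rested on 1 of the tested markers, *Lyz2* of myeloid cells, at 29.0, 17.1 and 45.3 RPKM against 0, 0.214 and 12.4 RPKM. The other, the macrophage marker *Cd68*, overlapped at 7.60, 2.60 and 4.01 RPKM against 5.35, 5.29 and 1.71 RPKM and was lowest in sg*Kmt2c* replicate 3, where *Hspb1* and *Lyz2* were highest of that genotype. *Adgre1*, too low to be tested, did not overlap, at 0.202, 0.290 and 0.492 RPKM against 0, 0 and 0.0721 RPKM. It had 4, 5 and 11 reads against 0, 0 and 1. The common leukocyte marker *Ptprc* lay at 0.0655 RPKM or less in all lines and *Cd3e* at 0. *Hspb1* carried most of the role's summed level, which was 205, 226 and 218 RPKM against 51.0, 58.5 and 108 RPKM.

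*Hspb8*, which works with *Bag3* in the autophagic removal of misfolded proteins, differed widely within each genotype. It lay at 2.71, 42.6 and 0.719 RPKM in sg*Trp53* lines and 0, 5.97 and 0.258 RPKM in sg*Kmt2c* lines, from 30, 412 and 9 reads against 0, 40 and 2. Replicate 2 was the high line in both genotypes. The difference of -1.66 had an interval from -4.79 to 1.47 (adjusted p = 0.724, limma). The summed fibroblast markers, 4 of 8 of them tested, were also highest in replicate 2 of each genotype, at 15.0, 986 and 166 RPKM, against 0.282, 149 and 110 RPKM in sg*Kmt2c* lines. In sg*Trp53* lines that sum was mostly *Col3a1*, at 3.37, 814 and 22.4 RPKM, and only 4 of the 8 markers were highest in replicate 2. *Col1a1* (0.470, 23.2 and 39.2 RPKM), *Dcn* (7.39, 0.897 and 8.16 RPKM) and *Thy1* (0, 0.108 and 2.51 RPKM) were highest in replicate 3. In sg*Kmt2c* lines replicate 2 led in 6 of the 7 markers with reads. *Lum* was at or near 0 in all lines, and the part of these cells in the *Hspb8* values was not tested. *Bag3* lay at 23.1, 30.2 and 26.3 RPKM against 16.8, 34.9 and 38.9 RPKM, so the genotypes overlapped.

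*Hspb6* lay at 9.19, 17.0 and 9.60 RPKM against 9.65, 12.2 and 7.56 RPKM, and *Hspb11*, a part of the transport machinery of cilia, at 8.47, 9.38 and 8.99 RPKM against 10.6, 10.3 and 5.23 RPKM. Both overlapped between the genotypes. The 3 untested genes, *Hspb2*, *Hspb7* and *Hspb9*, were read too rarely. *Hspb2*, named after its values were seen, had 47, 3 and 10 reads against 0, 1 and 2. Its neighbour on chromosome 9, *Cryab*, encodes the small heat shock protein αB-crystallin. *Cryab* lay at 174, 17.3 and 69.5 RPKM against 25.6, 30.0 and 52.9 RPKM, with sg*Trp53* replicate 1 highest, as for *Hspb2*.

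**Figure D2:**
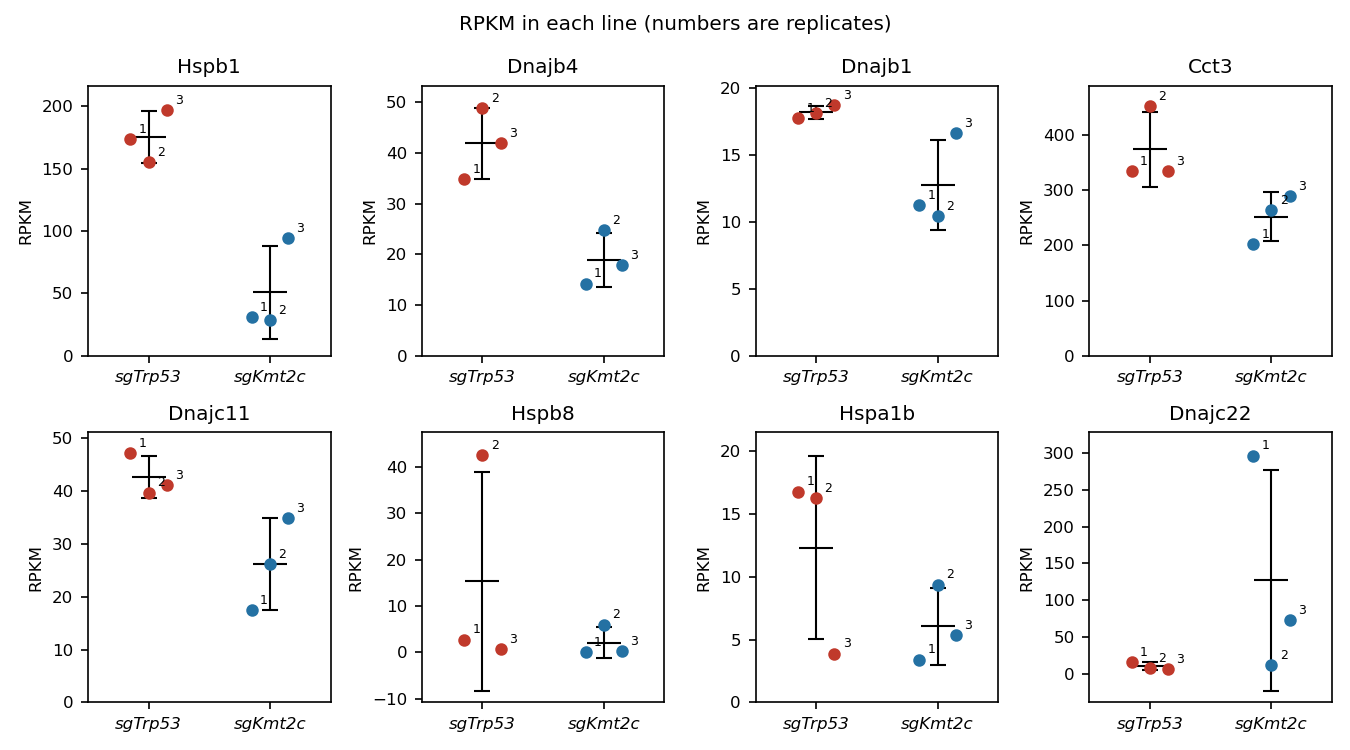
RPKM (vertical axis of each panel) in the 3 sg*Trp53* lines (red) and the 3 sg*Kmt2c* lines (blue), numbered by replicate, with the mean and SD (black), for 8 chaperone genes. *Hspb1*, *Dnajb4*, *Dnajb1*, *Cct3* and *Dnajc11* do not overlap between the genotypes, *Hspb8* and *Hspa1b* do, and *Dnajc22* is high in sg*Kmt2c* replicates 1 and 3 at 296 and 72.5 RPKM.

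Of the HSP70 and HSP110 genes 10 of 15 were tested, 9 with a negative and 1 with a positive difference, at a median of -0.27. Over all genes tested 58.0% were negative. None had an unadjusted p-value under 0.05 (limma) and none was without overlap, where 5.34% and 10.4% of all genes were so as lower. With so few genes, a count of 0 says little. The constitutive *Hspa8* was the most abundant, at 700, 681 and 687 RPKM in sg*Trp53* lines and 525, 930 and 641 RPKM in sg*Kmt2c* lines. The sg*Trp53* lines were nearly equal and lay inside the range of the sg*Kmt2c* lines, with a difference of -0.02 (interval -0.61 to 0.57) that turned positive under median-of-ratios scaling. *Hspa1b*, the stress-inducible form, was far lower, at 16.8, 16.3 and 3.88 RPKM against 3.41, 9.39 and 5.34 RPKM. Here sg*Trp53* replicate 3 lay among the sg*Kmt2c* lines (difference -0.79, adjusted p = 0.718, limma). Its near copy *Hspa1a* had 19, 44 and 13 reads against 1, 2 and 9 and was not tested. How reads shared by such close copies were counted is not given in the sources used here, so both values are uncertain.

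The HSP110 exchange factors of HSP70 overlapped as well. *Hsph1* lay at 51.8, 49.0 and 46.6 RPKM against 33.8, 34.0 and 78.4 RPKM, so that sg*Kmt2c* replicates 1 and 2 lay under the sg*Trp53* lines and replicate 3 above them. *Hspa4* lay at 122, 160 and 128 RPKM against 80.8, 105 and 153 RPKM. *Hspa4l*, at 71.1, 64.8 and 53.3 RPKM against 89.3, 17.9 and 40.3 RPKM, differed 4.98-fold between its highest and lowest line, both sg*Kmt2c*. *Hspa2*, known for its role in sperm formation, had the positive difference of the group, 0.12 (interval -0.66 to 0.91), which turned to -0.16 without sg*Kmt2c* replicate 1.

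*Hsp90ab1*, the constitutive cytosolic HSP90, was the most abundant gene of the family. It lay at 1744, 1665 and 1406 RPKM in sg*Trp53* lines and 1171, 2013 and 1824 RPKM in sg*Kmt2c* lines, which lay on both sides of the sg*Trp53* lines. The difference was 0.03 (interval -0.61 to 0.66) and became -0.07 with quantile normalization. The inducible *Hsp90aa1* lay at 385, 324 and 301 RPKM against 282, 217 and 374 RPKM, a difference of -0.24 (interval -0.83 to 0.35).

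In the ER, *Hspa5* (BiP, the HSP70 of that compartment) lay at 147, 249 and 225 RPKM against 266, 129 and 136 RPKM. The highest line was sg*Kmt2c* replicate 1 and the lowest sg*Kmt2c* replicate 2. *Hsp90b1* (GRP94) lay at 141, 193 and 189 RPKM against 129, 118 and 167 RPKM, a difference of -0.33 (interval -0.86 to 0.19). *Dnajb9*, a J-domain partner of BiP, was level at 8.44, 7.06 and 8.02 RPKM in sg*Trp53* lines and reached 20.4 RPKM in sg*Kmt2c* replicate 1, with 8.58 and 6.27 RPKM in the others. The sign of its difference (0.37) turned without that line (-0.08). *Dnajc3*, which restrains the stress kinase PERK, lay at 11.2, 21.3 and 14.5 RPKM against 15.0, 18.0 and 10.9 RPKM. The ER list had 11 genes, all tested, at a median of -0.08. At an unadjusted p-value under 0.05 (limma) 0 were higher and 0 lower, against 3.25% and 5.34% of all genes. *Hyou1*, the exchange factor of BiP, lay at 49.6, 52.8 and 59.8 RPKM against 42.2, 50.3 and 54.0 RPKM.

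*Hspd1* and *Hspe1*, the chamber and the lid of the mitochondrial chaperonin, kept step with each other in every line. *Hspd1* lay at 420, 376 and 497 RPKM in sg*Trp53* lines and 238, 457 and 561 RPKM in sg*Kmt2c* lines. *Hspe1* lay at 200, 171 and 207 RPKM against 100, 249 and 268 RPKM. Both were lowest in sg*Kmt2c* replicate 1 and highest in replicate 3. The ratio of *Hspd1* to *Hspe1* was 2.10, 2.20 and 2.40 against 2.37, 1.83 and 2.09, while either gene alone varied 2.36-fold or more. Their listed positions overlap, so reads near the shared start could belong to either. The differences between genotypes were -0.12 (interval -0.93 to 0.69) and -0.03 (interval -0.95 to 0.90), and that of *Hspe1* turned positive under median-of-ratios scaling and quantile normalization.

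*Hspa9* (mortalin), the HSP70 that pulls proteins into mitochondria, lay at 403, 428 and 364 RPKM against 409, 227 and 388 RPKM, with only sg*Kmt2c* replicate 2 outside the range of the others. *Trap1*, the mitochondrial HSP90, lay at 109, 86.0 and 78.0 RPKM against 87.4, 106 and 85.3 RPKM. Of the 15 mitochondrial genes listed, all tested, 2 were lower at an unadjusted p-value under 0.05 (13.3%, where 5.34% of all genes were) and 0 higher (against 3.25%), at a median of -0.03. *Dnajc11*, tied to the cristae of the inner membrane, lay at 47.2, 39.7 and 41.2 RPKM against 17.4, 26.2 and 35.0 RPKM, without overlap (difference -0.73, SE 0.276, adjusted p = 0.555, limma). *Dnajc19*, a J-domain part of the import motor that *Hspa9* drives, lay at 11.2, 9.85 and 7.96 RPKM against 6.37, 4.99 and 5.80 RPKM, also without overlap (difference -0.66, SE 0.235, adjusted p = 0.528, limma). *Dnajc19* overlaps *Fxr1* in position, so some of its reads could belong to that gene. Its pseudogene *Dnajc19-ps* was among the 6 lower genes too, but had 6, 8 and 10 reads against 2, 1 and 3, and reads of the gene and of its copy cannot be told apart with certainty.

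Of the TRiC genes 7 of 10 were tested. The complex holds one copy of each of its different subunits in each ring, and its alpha subunit, *Tcp1*, carries another symbol and is listed here only for comparison. *Cct3* (gamma) lay at 334, 452 and 334 RPKM in sg*Trp53* lines and 203, 263 and 289 RPKM in sg*Kmt2c* lines, without overlap. Its means were 373 ± 68.0 and 252 ± 44.4 RPKM (SD, n = 3 lines each), with a difference of -0.57 (SE 0.224, adjusted p = 0.569, limma). *Cct2* (beta) was the one chaperone gene with every sg*Kmt2c* line above every sg*Trp53* line, at 288, 303 and 291 RPKM against 308, 372 and 384 RPKM (difference 0.26, SE 0.173, adjusted p = 0.702, limma). *Cct6a* (zeta) lay at 233, 239 and 264 RPKM against 173, 224 and 215 RPKM, without overlap. The other 4 subunits overlapped, and the median of the 7 was -0.05. *Cct5* (epsilon) was among the steadiest chaperone genes, at 329, 320 and 292 RPKM against 281, 263 and 308 RPKM.

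The balance between *Cct2* and *Cct3* was chosen for description after the values were seen. *Cct2* was higher and *Cct3* lower without overlap, so their ratio had to separate the genotypes. Neither the ratio nor their shares add support to the differences of the 2 genes. Their ratio within a line was 0.862, 0.671 and 0.871 in sg*Trp53* lines and 1.52, 1.41 and 1.33 in sg*Kmt2c* lines, so *Cct3* was the more abundant per length in each sg*Trp53* line and *Cct2* in each sg*Kmt2c* line. A ratio within a library does not depend on the scaling between libraries. Of the summed RPKM of *Tcp1* and the 7 *Cct* subunits, *Cct3* made up 9.19% to 12.1% in sg*Trp53* lines and 7.31% to 7.48% in sg*Kmt2c* lines, and *Cct2* 7.92% to 8.59% and 9.69% to 11.3%. *Tcp1* took 45.5% to 51.8% of that sum, but its RPKM rests on a listed length of 329 bases, too short for a comparison with the others.

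**Figure D3:**
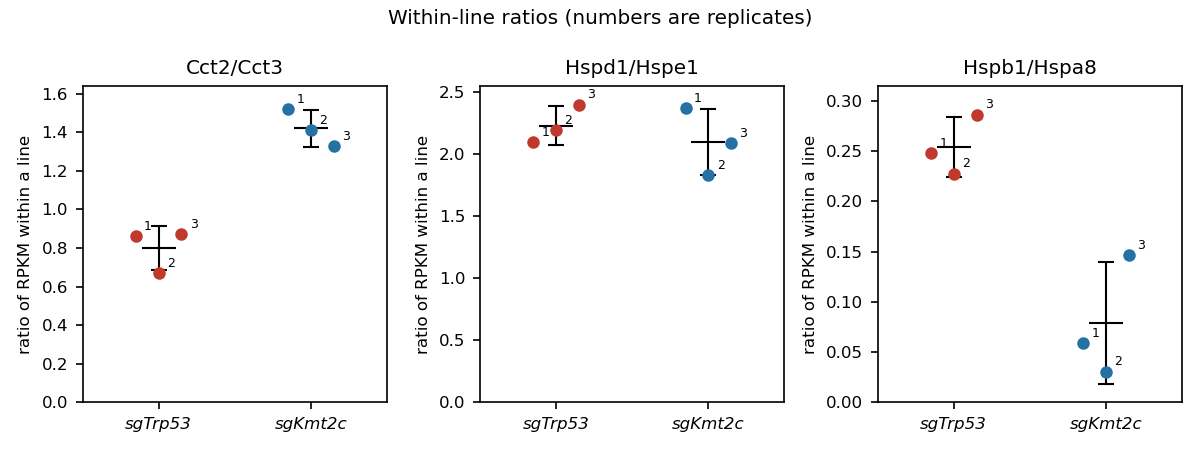
Ratio of RPKM within a line (vertical axis) for *Cct2* to *Cct3*, *Hspd1* to *Hspe1* and *Hspb1* to *Hspa8* in the 3 sg*Trp53* lines (red) and the 3 sg*Kmt2c* lines (blue), numbered by replicate, with the mean and SD (black). The ratio of *Cct2* to *Cct3* lies at 0.671 to 0.871 against 1.33 to 1.52, which follows from the choice of the pair. That of *Hspd1* to *Hspe1* lies at 1.83 to 2.40 in all lines. That of *Hspb1* to *Hspa8* lies at 0.228 to 0.286 against 0.0307 to 0.147, which mostly repeats the difference of *Hspb1* and adds no support to it.

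The J-domain proteins are the largest group, with 38 of 44 genes tested, 13 positive and 25 negative (58.0% of all genes were negative). *Dnajb4* (ENSMUSG00000028035, chromosome 3, 152178511 to 152210302), a cytosolic partner of HSP70, had the smallest p-value of all chaperone genes. It lay at 34.9, 48.9 and 41.9 RPKM in sg*Trp53* lines and 14.2, 24.7 and 17.9 RPKM in sg*Kmt2c* lines, so the genotypes were well apart. The means were 41.9 ± 7.01 and 19.0 ± 5.32 RPKM (SD, n = 3 lines each), 2.21-fold apart. The log2 fold change was -1.12 (SE 0.259, 95% confidence interval -1.74 to -0.50, adjusted p = 0.343, limma). *Dnajb1*, the classical HSP40 and itself heat inducible, lay at 17.8, 18.1 and 18.7 RPKM against 11.2, 10.4 and 16.6 RPKM. It did not overlap either, with a difference of -0.51 (SE 0.234, adjusted p = 0.608, limma). *Dnajb6*, which keeps polyglutamine proteins soluble, was the steadiest chaperone gene, at 28.3, 29.0 and 30.7 RPKM against 28.2, 29.1 and 27.8 RPKM, and its windows held the long heat shock element.

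Class A of the J-domain proteins overlapped throughout. *Dnaja1* lay at 50.8, 58.4 and 55.5 RPKM against 31.4, 35.5 and 60.4 RPKM, the pattern of *Hsph1*, with sg*Kmt2c* replicates 1 and 2 low and replicate 3 highest. *Dnaja2* lay at 95.9, 84.3 and 88.6 RPKM against 114, 88.9 and 108 RPKM. The mitochondrial *Dnaja3* lay at 266, 162 and 176 RPKM against 352, 187 and 220 RPKM, on a listed length of 487 bases.

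In class C, *Dnajc7*, which binds both HSP70 and HSP90, lay at 209, 236 and 219 RPKM in sg*Trp53* lines and 167, 168 and 177 RPKM in sg*Kmt2c* lines. The lines of each genotype were close together and did not overlap with the other (difference -0.37, SE 0.157, adjusted p = 0.591, limma). *Dnajc13*, which acts on endosomes, and *Dnajc24*, needed to modify elongation factor 2, completed the lower genes without overlap, with differences of -0.33 and -0.45. *Dnajc25* was low in a single line, at 51.5, 68.4 and 45.2 RPKM against 12.7, 48.6 and 71.1 RPKM, and its difference of -0.59 turned to 0.12 without sg*Kmt2c* replicate 1.

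*Dnajc22* was the gene with a positive difference at an unadjusted p-value under 0.05. It lay at 15.9, 6.91 and 6.48 RPKM in sg*Trp53* lines and 296, 11.4 and 72.5 RPKM in sg*Kmt2c* lines. Replicates 1 and 3 of sg*Kmt2c* stood above all others, while replicate 2 lay inside the sg*Trp53* range. The log2 fold change of 2.69 (SE 1.08, 95% confidence interval 0.10 to 5.28) did not pass the adjustment (adjusted p = 0.575, limma). The sum of the 8 hepatocyte markers, 4 of them tested, was also highest in these lines, at 42.3, 16.7 and 67.3 RPKM against 5614, 2.33 and 302 RPKM. All 8 markers were highest in sg*Kmt2c* replicate 1. The place of replicate 3 rested on *Hnf4a* and *Apob*, which made up most of the sum. Levels of these 2 genes rest on listed lengths of 431 and 1118 bases, so their weight in the sum depends on those lengths. *Hnf4a*, a master regulator of hepatocyte genes, lay at 24.7, 3.49 and 15.8 RPKM against 1186, 0.629 and 170 RPKM, and *Apob* at 12.9, 11.8 and 48.8 RPKM against 4385, 0.243 and 129 RPKM. In sg*Kmt2c* replicate 3 *Afp*, *Ttr* and *Serpina1a* lay below sg*Trp53* replicate 1, at 0.561 against 1.42 RPKM, 0.192 against 1.35 RPKM and 0 against 0.415 RPKM. The epithelial markers summed to 1013, 63.5 and 818 RPKM against 6801, 238 and 678 RPKM. The part of hepatocyte-like cells or expression in the *Dnajc22* values was not tested, and its levels rest on a listed length of 381 bases.

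Among genes of the heat shock response the lowest of the 6 lines was most often sg*Kmt2c* replicate 1 and the highest most often sg*Kmt2c* replicate 3. Of 17 known targets of heat shock factor 1, 16 were tested, with 0 higher (against 3.25% of all genes) and 1 lower (*Hspb1*, 6.25%, near the 5.34% of all genes) at an unadjusted p-value under 0.05 and a median of -0.21. In 10 of the 16 genes the lowest of the 6 lines was sg*Kmt2c* replicate 1, and in 6 the highest was sg*Kmt2c* replicate 3. The same counts were not made over all genes tested, so they are not shown to be particular to these genes. The median-of-ratios factor of sg*Kmt2c* replicate 1 was the lowest of the 6 libraries (0.935, the others 0.992 to 1.06). Its RPKM therefore ran low over genes in general, and the part of this in the counts was not tested. The summed level of the 17 targets was 2606, 2322 and 2530 RPKM in sg*Trp53* lines and 1662, 2390 and 2611 RPKM in sg*Kmt2c* lines. *Hsf1* transcript lay at 35.9, 27.9 and 26.5 RPKM against 26.4, 49.2 and 34.3 RPKM. *Hsf2* lay at 10.6, 8.06 and 9.55 RPKM against 11.4, 10.6 and 11.5 RPKM. The genotypes overlapped for both factors.

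Across all 64 tested genes the sg*Kmt2c* lines differed more among themselves than the sg*Trp53* lines did. The median SD of log2(RPKM + 1) was 0.181 in sg*Trp53* lines and 0.403 in sg*Kmt2c* lines, and 50 of the 64 genes (78.1%) varied more in the latter. Over all 11617 genes tested the medians were 0.255 and 0.412, with 70.7% of genes wider in sg*Kmt2c* lines, the same direction as in the chaperone genes. The part of the lower depth of the sg*Kmt2c* libraries in this spread was not tested. Replicate 1 of sg*Kmt2c* was the lowest of the 6 lines in 26 of the 64 genes and the highest in 15. Replicate 2 of sg*Trp53* was most often the highest, in 18. These counts were not made over all genes tested, and the part of the low scaling factor of sg*Kmt2c* replicate 1 in them was not tested.

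**Figure D4:**
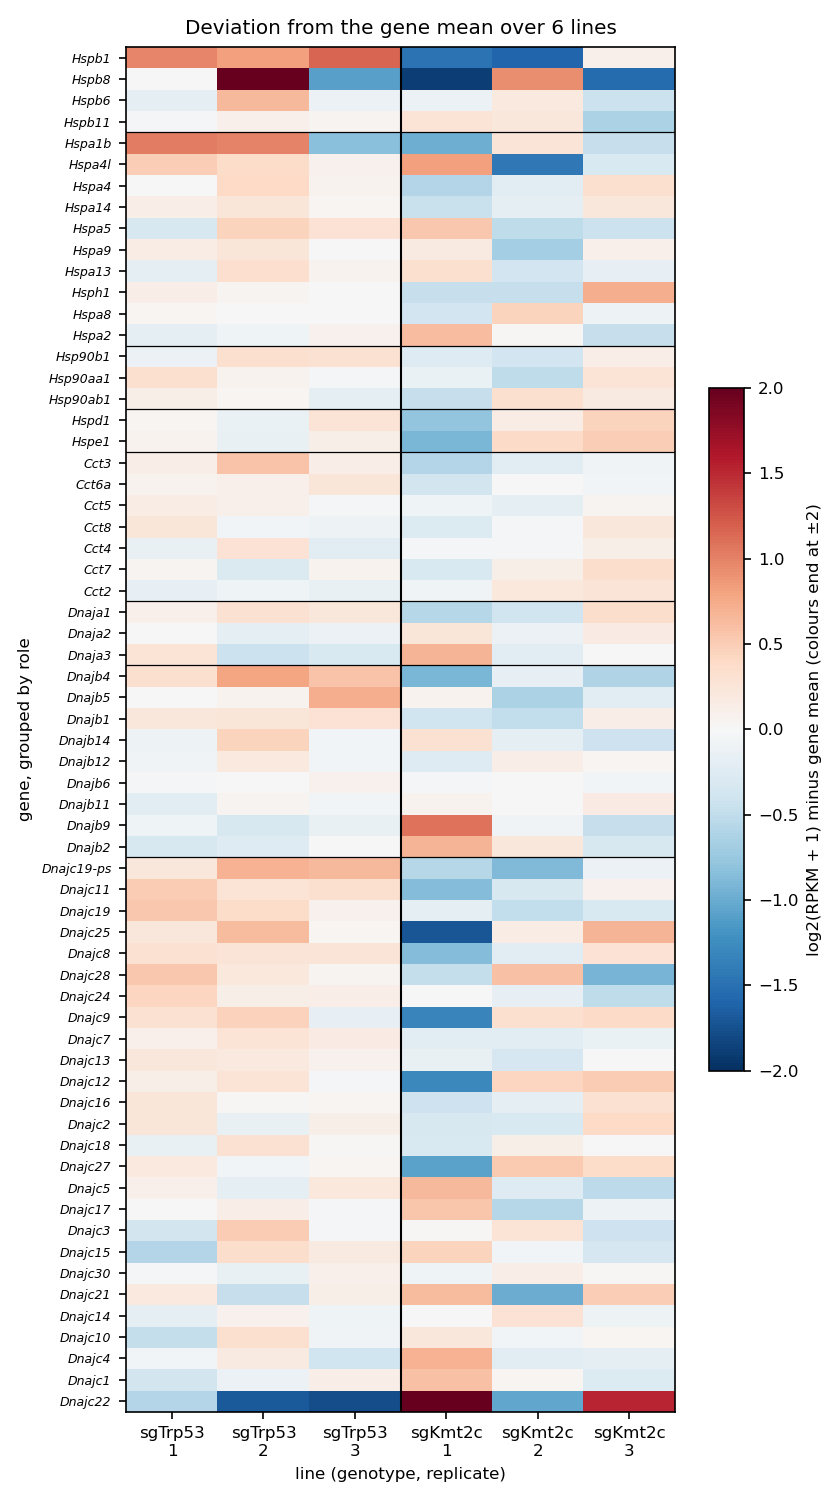
Log2(RPKM + 1) of each line (columns) minus the mean of the gene over the 6 lines (colour, which ends at ±2) for the 64 tested chaperone genes (rows), in blocks by role from small heat shock proteins at the top to class C J-domain proteins at the bottom and sorted by fold change within a block. The sg*Trp53* columns are paler than the sg*Kmt2c* columns (median SD 0.181 and 0.403), and sg*Kmt2c* replicate 1 holds the lowest value in 26 rows. That count was not made over all genes, and this library had the lowest median-of-ratios factor of the 6 (0.935).

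Of 59 co-chaperones, heat shock factors and related genes, 58 were tested, with a median difference of -0.06 and 0 past an adjusted p-value under 0.05 (limma). At an unadjusted p-value under 0.05, 1 was higher and 1 lower (1.72% each, below the 3.25% and 5.34% of all genes). *Bag5*, an exchange factor of HSP70, lay at 18.5, 11.0 and 14.2 RPKM in sg*Trp53* lines and 24.7, 23.6 and 21.1 RPKM in sg*Kmt2c* lines (difference 0.66, SE 0.239, adjusted p = 0.542, limma). *Pfdn1*, a subunit of prefoldin, which hands new actin and tubulin chains to TRiC, lay at 62.3, 66.5 and 75.7 RPKM against 49.7, 37.8 and 46.9 RPKM (difference -0.60, SE 0.190, adjusted p = 0.481, limma). Neither overlapped between the genotypes. Of the 58 tested genes 3 were higher and 4 lower without overlap, where 5.72% and 10.4% of all genes were. Besides *Stub1* and *Ppid*, given next, the others were *Chordc1* (higher), *Cdc37* and *Ttc1* (lower). *Stub1*, the ubiquitin ligase CHIP, lay at 25.2, 28.2 and 26.9 RPKM against 28.4, 34.1 and 38.9 RPKM, and *Ppid*, a cyclophilin that binds HSP90, at 75.0, 74.2 and 71.0 RPKM against 35.2, 49.3 and 67.6 RPKM, both without overlap and with unadjusted p-values above 0.05.

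Accounting for the 18 genes too low to be tested, 5 were HSP70 genes (*Hspa12a*, *Hspa12b*, *Hspa1a*, *Hspa1l* and the pseudogene *Hspa9-ps1*), 3 were small heat shock proteins, 3 were TRiC-related (*Cct6b*, *Cct8l1* and *Cct3-ps1*), 1 was the pseudogene *Hspe1-ps5*, and 6 were J-domain genes (*Dnaja4*, *Dnajb3*, *Dnajb7*, *Dnajb13*, *Dnajc5b* and *Dnajc6*). *Cct6b*, the form of the zeta subunit found in testis, had reads in sg*Trp53* replicate 2 only. Of all 82 genes, 26 overlap another listed gene in position, among them *Cct6a*, *Dnajc7*, *Dnajc13* and *Dnajc19* of the genes without overlap between genotypes, and the use of strand in the counting is not given in the sources used here.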

How the data were processed

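RNA-seq of 6 lines was analysed. The authors trimmed adaptors (Trimmomatic), aligned to GRCm38 (STAR), counted reads per gene (HTSeq) and deposited the values as RPKM. Multiplied by the listed transcript length, 100% of the values above 0 fell on whole reads (tolerance 0.001 reads). The table has 21065 rows, 209 without values, and 6 columns of other samples that were not used. The authors' deposited table of their own DESeq2 1.8.2 comparison (fold changes and p-values) was not used.

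Genes that reached 1 RPKM in 3 or more of the 6 libraries entered limma 3.58.1 (R 4.3.3; lmFit, then eBayes, trend included) as log2(RPKM + 1), with genotype as the sole term and Benjamini-Hochberg adjustment. Fold changes on that scale understate the change of low genes. A single read at 2 kb was worth 0.0726 to 0.136 RPKM. The procedure was tested on simulated data with changes larger than those of the chaperone genes, so that test does not bear on small differences. Exact permutation tests were two-sided. Alternatives changed the pseudocount (0.1, 0.5), filter, scaling, trend, test, block and lines. Named genes were those with the 6 smallest p-values in each direction, the most abundant of each role, the 4 most variable and a list of well-known chaperones, with any other gene named after its values were seen. The chaperone genes and the lists were chosen with earlier results of these data known. Motifs were searched on both strands of the RefSeq windows, and where a gene had several windows, a match in any of them counted.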

Additional observations from a re-analysis of the deposited data

How the results depend on the processing

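No chaperone gene passed an adjusted p-value under 0.05 (limma) in any of the 15 alternatives, where 3 to 9 had an unadjusted p-value under 0.05 (4.69% to 14.1%, against 4.85% to 12.7% of all genes, both highest without sg*Kmt2c* replicate 3). Of all genes tested, 0 passed it with the replicate block, with sg*Kmt2c* replicates 2 and 3 averaged, or with any line but sg*Kmt2c* replicate 1 left out. In the other alternatives 4 to 20 of all genes passed, so a count of 0 chaperone genes says little. The smallest adjusted p-value (limma) of any chaperone gene was 0.0518, of *Hspb1* without sg*Kmt2c* replicate 3. For *Hspb1* it ranged up to 0.922 without sg*Trp53* replicate 3, a fit in which the smallest of any chaperone gene was also 0.922. Its log2 fold change stayed between -2.52 and -1.67. The count of higher genes at an unadjusted p-value under 0.05 was 0 with limma voom and 0 to 1 with a line left out, and that of lower genes was 3 to 9 with a line left out (3 without sg*Trp53* replicate 1 or 2), where 2.10% to 4.19% of all genes were higher and 2.75% to 8.52% lower. With sg*Kmt2c* replicates 2 and 3 averaged, 4 genes were higher and 17 lower without overlap (6.25% and 26.6%, against 11.1% and 17.4% of all genes). With a line left out 1 to 6 were higher (1.56% to 9.38%, against 7.96% to 11.4%) and 11 to 21 lower (17.2% to 32.8%, against 14.3% to 21.0%), since fewer lines overlap less. The median of the chaperone genes was -0.0659 under median-of-ratios scaling and -0.208 to -0.127 with a line left out (-0.208 without sg*Kmt2c* replicate 3). That scaling moved the median of all genes from -0.086 to -0.012. The cause of the other changes was not tested.

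Of 45 named genes 32 kept their sign in all alternatives. The sign turned for *Bag3* (-0.0779 with both lines averaged, -0.118 to 0.465 with a line left out), *Hsp90ab1* (-0.0735 with quantile normalization, -0.0922 averaged, -0.129 to 0.262), *Hspa8* (0.0611 with median-of-ratios scaling, -0.249 to 0.163), *Hspe1* (0.0574 with that scaling, 0.0237 with quantile normalization, -0.278 to 0.427), *Dnajc3* (0.00259 with that scaling, -0.279 to 0.157) and *Tcp1* (0.00291 with that scaling, -0.234 to 0.127). With a line left out it also turned for *Dnajb9* (-0.0791 to 0.698), *Dnajc25* (-1.08 to 0.115), *Hspa2* (-0.156 to 0.381), *Hspa9* (-0.42 to 0.00404), *Hspd1* (-0.375 to 0.242), *Hsph1* (-0.52 to 0.0745) and *Trap1* (-0.0644 to 0.174).

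Deviations of lines with the same replicate number correlated at 0.192, 0.399 and 0.0316 across genes, and those of lines with different numbers at -0.284 to 0.152. The labels do not say that the numbers pair the lines. With the number as a replicate block, 5 chaperone genes in place of 7 had an unadjusted p-value under 0.05 (7.81%, against 9.34% of all genes), and 0 in place of 15 of all genes passed the adjustment.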
